A study of Mus musculus with 96 samples.

Results

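The cyclins described here are 10 genes: Ccnb1, Ccnb2, Ccnb3, Ccna2, Ccne1, Ccne2, Ccnd1, Ccnd2, Ccnd3 and Ccnjl. They were picked by mouse gene symbol, after matching of the Ensembl identifiers to the GENCODE annotation, and all 10 were found among the 55401 gene rows of the deposited table. Their levels were followed in 96 libraries, each from a single oocyte or embryo of the mouse strain C57BL/6J, from the oocyte through fertilization, the first cleavage and activation of the embryonic genome to the morula. The oocyte group had n = 8 and the morula group, at about 84 h, n = 7. Embryos were taken at 14 times after fertilization: n = 5 for each of 0, 2, 8, 10, 12, 14 and 20 h, n = 2 for the 4 h group and n = 3 for the 6 h group. The 16 h and 36 h groups each had n = 8, the 18 h group n = 9, the 22 h group n = 10 and the 24 h group n = 6. The labels give the same protocol for all 16 groups and none apart for oocytes. In it, females were superovulated with PMSG and, 46 h later, hCG, and mated with C57BL/6J males. Collection started 12 h after hCG and was repeated every 2 h. Steps of 2 h hold for the embryo groups up to 24 h, which were followed by 36 h and about 84 h. No embryo was treated, and the labels name no mutant allele or transgene. Cumulus cells, the follicle cells that surround the egg, had been stripped off with hyaluronidase, and embryos were cultured in KSOM medium.

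Cyclins are the regulatory partners of the cyclin-dependent kinases: a kinase of this family is inactive until a cyclin binds it. D-type cyclins (with Cdk4 or Cdk6) and E-type cyclins (with Cdk2) act in G1 and at entry into S phase, A-type cyclins act in S phase and G2, and B-type cyclins with Cdk1 drive entry into meiotic or mitotic M phase. In the mammalian egg, cyclin B with Cdk1 holds the cell in metaphase of the second meiotic division until fertilization triggers its destruction. The egg is largely silent in transcription, so most cyclin RNA of the early embryo is maternal, and its poly(A) tails are lengthened and shortened in the cytoplasm. The libraries were primed on poly(A) tails (SMART-Seq v4), so a change in transcript number and a change in tail length cannot be told apart here. Each library holds a whole oocyte or embryo. In embryos of several cells, fewer cells that carry a transcript and less of it per cell cannot be told apart.

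Levels are CPM (counts scaled to a common library total) of the rounded gene counts after TMM scaling, as mean ± SD over libraries unless single values are given. They are relative to the other RNA of a library, so a rise or fall here does not give molecules per embryo. The median log2 change over all genes tested was -0.53 in morulae against 36 h and 0.40 at 36 h against 0 h. In the other main comparisons it lay between -0.03 and 0.05. Gene totals ran from 10614 and 565920 to 6798455 counts per library, with a median of 2101302. As a check of the labels, all 7 oocyte markers were at 1 CPM or more on average in every group, and their summed level fell from a median of 15427 CPM in oocytes to 149 CPM in morulae. The 6 two-cell markers summed to a median of 1295 CPM at 36 h and to 5.11 CPM in morulae. The 7 morula markers summed to a median of 197 CPM in oocytes and 120 CPM in morulae, so this list did not set morulae apart. Cumulus and granulosa markers (17 genes) ranged from 1.33 to 10680 CPM. Replicate 5 of 10 h held that highest value, its oocyte markers summed to 28.0 CPM against at least 18088 CPM in the other 10 h libraries, and its median correlation with them was 0.108. Morula replicate 4 had the lowest total count of all. Both libraries were kept. In morulae against 36 h without morula replicate 4, Ccnb3 (log2 change -3.67, adjusted p = 0.0012) and Ccnjl (log2 change -8.48, adjusted p = 3.2e-10) were called. Ccnb2 gained a call there, as higher in morulae (adjusted p = 0.015). Ccne1 (-0.42, adjusted p = 0.13), Ccne2 (-0.66, adjusted p = 0.14), Ccnd3 (0.19, adjusted p = 0.66) and Ccna2 (-0.03, adjusted p = 0.90) were not called. The class shares and the levels of genes that are no members are given with both libraries only. Oocytes and morulae were processed in batches of their own, so batch and stage cannot be told apart in comparisons of 0 h with oocytes and of morulae with 36 h. Nothing in the labels says that libraries of a group came from separate litters, so p-values measure the spread between these libraries. One series of title numbers runs on across 4 h and 6 h, so these hours are less certain. A final letter b marks 24 of the titles at 16 h and later, and what it stands for is not stated.

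Promoters are shown for 4 members, since Ccnb1 and Ccnb2 fell and Ccne1 and Ccnjl rose between 24 h and 36 h. Promoter sequences (250 bases before to 50 bases after the start site) are from RefSeq on GRCm38.p6, where 6 of the 10 members matched: Ccnb1, Ccnb2, Ccnb3, Ccnd3, Ccne1 and Ccnjl. Capitals mark CCAAT, the box bound by NF-Y, TTTGAA, the cell cycle element called CHR, and GGCGGGA, a motif of the E2F type. All were searched on both strands, and no matches overlapped. The sequences run 5′ to 3′ in the direction of the gene: Ccnb1 at chr13:100786437-100786736 (minus strand), Ccnb2 at chr9:70421505-70421804 (minus strand), Ccne1 at chr7:38107441-38107740 (minus strand) and Ccnjl at chr11:43528499-43528798 (plus strand).
Ccnb1: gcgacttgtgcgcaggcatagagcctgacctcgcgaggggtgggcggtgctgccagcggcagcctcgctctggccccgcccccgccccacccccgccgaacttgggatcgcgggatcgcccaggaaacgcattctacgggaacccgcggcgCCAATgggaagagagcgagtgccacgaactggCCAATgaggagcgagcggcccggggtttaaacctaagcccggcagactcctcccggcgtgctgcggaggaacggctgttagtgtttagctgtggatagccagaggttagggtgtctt
Ccnb2: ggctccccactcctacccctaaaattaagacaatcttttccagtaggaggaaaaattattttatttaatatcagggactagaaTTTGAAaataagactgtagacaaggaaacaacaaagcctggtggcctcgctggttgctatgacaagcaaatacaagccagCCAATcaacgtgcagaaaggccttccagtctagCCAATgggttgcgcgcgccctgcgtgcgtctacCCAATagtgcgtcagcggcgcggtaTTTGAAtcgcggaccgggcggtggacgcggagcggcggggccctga
Ccne1: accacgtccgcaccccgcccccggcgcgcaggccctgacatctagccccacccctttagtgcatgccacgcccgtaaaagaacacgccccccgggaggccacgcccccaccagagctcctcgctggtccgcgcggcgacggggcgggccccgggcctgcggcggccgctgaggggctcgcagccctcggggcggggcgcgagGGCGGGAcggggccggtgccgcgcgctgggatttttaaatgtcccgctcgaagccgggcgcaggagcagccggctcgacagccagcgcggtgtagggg
Ccnjl: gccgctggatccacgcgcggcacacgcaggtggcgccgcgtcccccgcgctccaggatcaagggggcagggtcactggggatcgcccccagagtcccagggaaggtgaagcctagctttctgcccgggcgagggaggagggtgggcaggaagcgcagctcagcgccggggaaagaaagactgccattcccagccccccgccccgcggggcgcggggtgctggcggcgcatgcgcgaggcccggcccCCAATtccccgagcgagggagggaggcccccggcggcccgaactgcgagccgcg
The Ccnb1 promoter held 2 CCAAT boxes, which began 99 and 67 bases before the start site. The Ccnb2 promoter held 3 CCAAT boxes, at 87, 54 and 21 bases before the start, and 2 TTTGAA elements. Of 32851 promoters of the same length, 37.4% held a CCAAT and 11.7% held at least 2, while 17.9% held TTTGAA. The Ccne1 promoter held 1 GGCGGGA, at 48 bases before the start, against 11.3% of all promoters, and no CCAAT or TTTGAA. Ccnjl held 1 CCAAT, at 4 bases before the start. The Ccnb3 promoter and the first of both Ccnd3 promoters held none of these letters, and the other Ccnd3 promoter held 1 CCAAT. The matches are descriptions of the sequence and were not measured as binding.

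The 3′ ends are shown because the libraries were primed on poly(A) tails and because maternal cyclin RNAs are known for control of their tails. Capitals mark the cytoplasmic polyadenylation element (TTTTAT or TTTTAAT), searched on the sense strand in the last 100 bases of annotated coding transcripts. Each line gives a 30-base window of a GENCODE M21 transcript, written as DNA.
Ccnb1-202: tctcatttgctgTTTTAATttatacatctg
Ccna2-205: ctatttggataaTTTTAATtggttaacatt
Ccnb3-202: tcttgaaattacTTTTATgaaagaagagaa
Ccne1-201: gtgctgctatgtctatcaatTTTTAATAAA
In Ccne1-201 the capitals also cover the polyadenylation signal AATAAA, which shares 3 bases with the element and ends the window. In Ccnb1-202 the element began 62 bases before the transcript end and the AATAAA 33 bases before it. The longer Ccnb1-201 had an AATAAA 24 bases before its end and no such element in this window. The element was not found in this window of the annotated ends of Ccnb2, Ccne2, Ccnd1, Ccnd2, Ccnd3 or Ccnjl, and Ccna2-205 carried it while the longer Ccna2-201 did not. Among the longest coding transcripts of 19967 genes, 17.8% held the element in this window. Of the lines shown, only Ccnb3-202 and Ccne1-201 are the longest of their genes and can be set beside that share. Which of these ends the embryos used was not measured.

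Among the 10 members, cyclin B1 RNA was the most abundant per kilobase of exon in every group from the oocyte to the morula. It rose from 0 h to 12 h, fell between 14 h and 16 h, and fell again between 24 h and 36 h. Ccnb1 (ENSMUSG00000041431.16, chr13:100778650-100786570, minus strand) encodes the cyclin that activates Cdk1 at entry into M phase. In oocytes its level was 1747 CPM at the lowest, 2404 CPM at the median and 2674 CPM at the highest of 8 libraries. The 0 h embryos had 1459, 1394, 2081, 2340 and 2209 CPM. The 12 h embryos had 6031, 3972, 6213, 6139 and 3662 CPM, so every 12 h library was above every 0 h library. The mean rose 2.70-fold from 0 h to 12 h (log2 change 1.43, SE 0.22, adjusted p = 7.2e-05 in edgeR's quasi-likelihood test with Benjamini-Hochberg adjustment over 8232 genes, the test behind every adjusted p below unless another is named).

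Most of that rise of Ccnb1 lay between 2 h and 4 h in the group means: 2771 ± 977 CPM at 2 h (n = 5) and 4892 ± 1248 CPM at 4 h (n = 2). At 2 h, 4 of 5 embryos had 2082 to 2496 CPM, and replicate 5 had 4494 CPM, within the range of the 4 h libraries (5775 and 4009 CPM). Neither 2-hour step passed the test on its own: the log2 change was 0.47 from 0 h to 2 h (SE 0.20, adjusted p = 0.16) and 0.85 from 2 h to 4 h (SE 0.27, adjusted p = 0.15). From 4 h to 12 h the group means lay between 4892 and 5375 CPM. The 10 h mean of 4946 ± 2716 CPM included 248 CPM in replicate 5, and without that library it was 6121 CPM.

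At 14 h the embryos had 3650, 2138, 3332, 3191 and 3580 CPM of Ccnb1, below every 12 h library, but the step from 12 h did not pass the test (log2 change -0.68, SE 0.19, adjusted p = 0.12). At 16 h the lowest, median and highest of 8 libraries were 793, 1216 and 2396 CPM. The fall from 14 h to 16 h was 2.24-fold (log2 change -1.16, SE 0.21, adjusted p = 0.0037), and the ranges overlapped by 1 library of each hour. Without the titles ending in b the log2 change was -1.05 but the adjusted p was 0.060. The means then were 2181 ± 598 (18 h), 1978 ± 991 (20 h), 1658 ± 843 (22 h) and 2242 ± 483 CPM (24 h), and no 2-hour step among them passed the test. The 24 h level was 2.31-fold below that of 12 h (log2 change -1.21, SE 0.22, adjusted p = 0.0021), with every 24 h library, at 1577 to 2807 CPM, below every 12 h library.

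**Figure D1:**
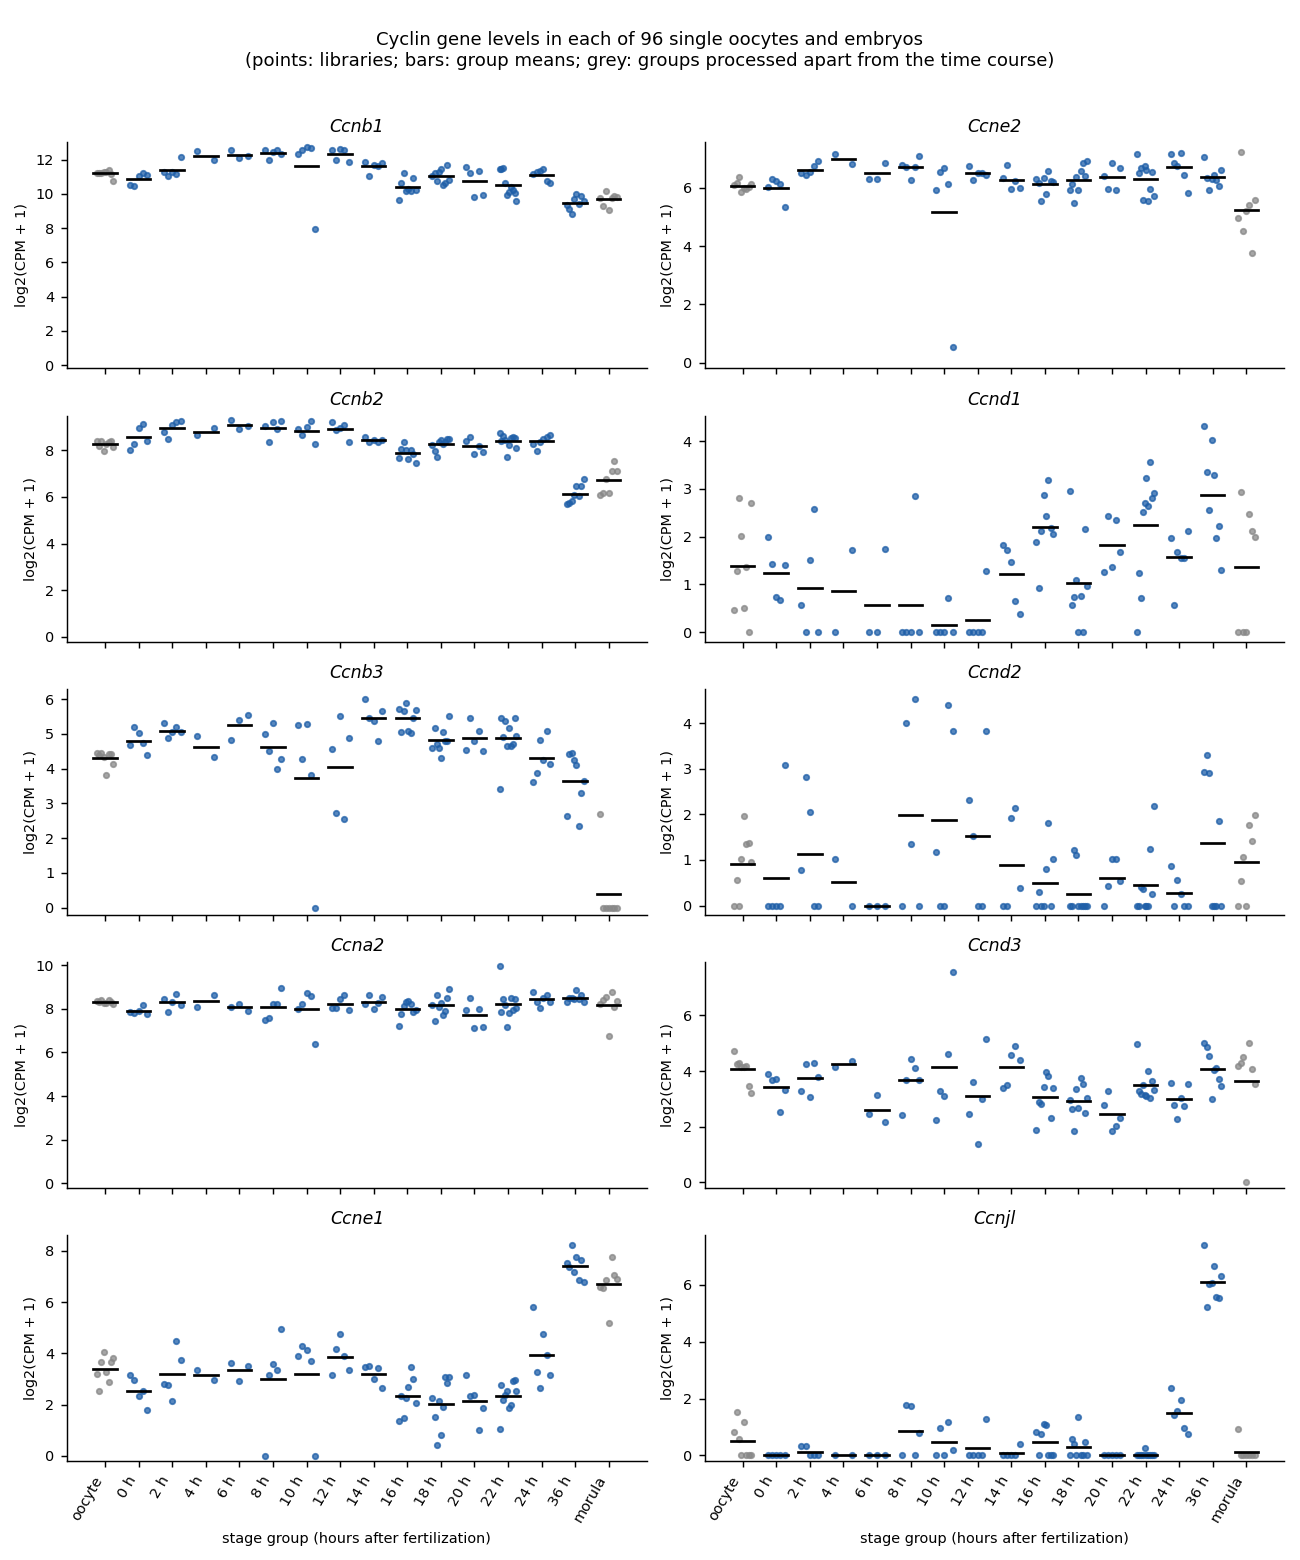
Levels of the 10 cyclin genes as log2(CPM + 1) on the y axis, by stage group on the x axis; each point is 1 library, each black bar the mean of the plotted values of a group, and grey points are the groups processed apart from the time course. Ccnb1 is highest from 4 h to 12 h, Ccnb2 drops at 36 h, Ccnb3 is at 0 in 6 of 7 morulae, and Ccne1 and Ccnjl are high at 36 h, while Ccnjl is near 0 elsewhere.

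Part of the spread of Ccnb1 between 16 h and 24 h ran with the form of the titles. At 22 h the 3 libraries without b had 2846, 2771 and 2898 CPM, and the 7 libraries with b had 760 to 1568 CPM, with a median of 1110 CPM. The ranges did not overlap. At 24 h the 4 libraries without b had 2287 to 2807 CPM and the pair with b had 1746 and 1577 CPM, again without overlap. At 16 h and 18 h the ranges of both title forms overlapped: 793 to 2396 and 1161 to 1930 CPM at 16 h, and 1713 to 2492 and 1488 to 3288 CPM at 18 h. All 20 h titles end in b, and their 5 libraries fell into 889 and 965 CPM on one side and 2370, 2612 and 3055 CPM on the other. The part of the title form in the result was not tested.

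**Figure D2:**
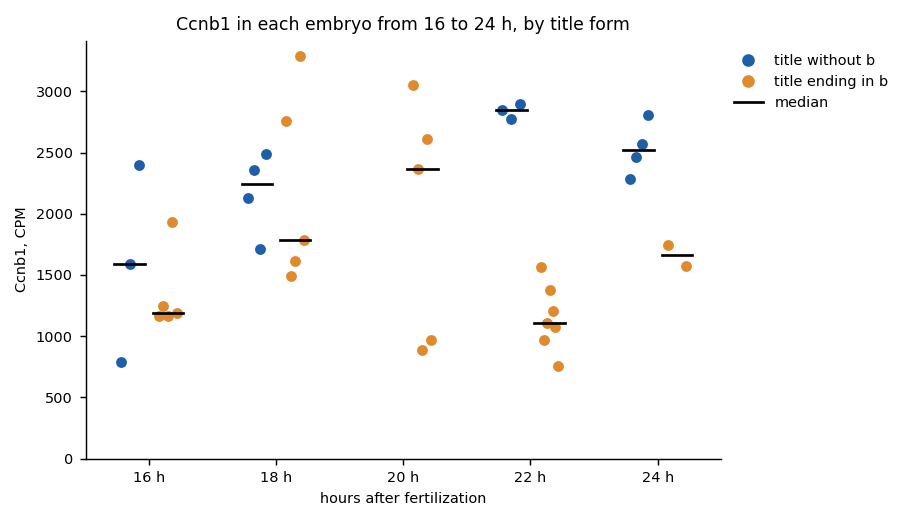
Ccnb1 in CPM (y axis, from 0) in each embryo from 16 h to 24 h after fertilization (x axis), with titles without b in blue and titles ending in b in orange; black lines are medians. At 22 h and 24 h the blue points lie above all orange points of the same hour, and at 16 h and 18 h they overlap.

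The second fall of Ccnb1 came between 24 h and 36 h. The 36 h embryos had 460 to 1023 CPM with a median of 720 CPM, below every 24 h library. The difference was 3.15-fold (log2 change -1.66, SE 0.22, adjusted p = 1.7e-05). Against 0 h the 36 h level was 2.34-fold lower (log2 change -1.23, SE 0.21, adjusted p = 6.0e-05). Morulae had 839 ± 200 CPM against 736 ± 187 CPM at 36 h, a difference within the spread (log2 change 0.15, SE 0.29, adjusted p = 0.67). Leaving out the shallow morula replicate 4 gave a log2 change of 0.35 with an adjusted p of 0.15. At 0 h the log2 change against oocytes was -0.24 (SE 0.13, adjusted p = 0.13), and without 0 h replicate 4 or 5 the adjusted p was 0.036 or 0.048.

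Reads of Ccnb1 can also be placed on a processed pseudogene, an intronless copy of the mRNA. Ccnb1-ps (ENSMUSG00000048574.9, chr7:42105899-42107185, minus strand) aligned over its whole 1287 bases to bases 169 to 1455 of Ccnb1-201, with 99.2% identical positions. It held 216698 counts against 562439 of Ccnb1 over all libraries, and its counts were 0.35 to 0.54 of those of Ccnb1 in the group means. The ratio was 0.348 ± 0.019 at 12 h (n = 5) and 0.541 ± 0.042 at 36 h (n = 8), with no overlap between these groups. How the reads were shared between gene and copy cannot be told from the counts, so the split is uncertain. Summing both rows left every call of Ccnb1 as it was: the log2 change was 1.42 from 0 h to 12 h and -1.13 from 12 h to 24 h. This summing was added after the data were seen. From 24 h to 36 h the row of Ccnb1-ps fell 2.42-fold, against 3.15-fold for Ccnb1. From 0 h to 36 h it fell 1.54-fold, against 2.34-fold. The summed level was 3174 ± 614 CPM at 24 h and 1136 ± 300 CPM at 36 h. The sizes of the falls to 36 h and the class shares there depend on the split.

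Cyclin B2 RNA lay between 238 and 547 CPM in the group means up to 24 h and fell 4.87-fold between 24 h and 36 h. Ccnb2 (ENSMUSG00000032218.7, chr9:70407692-70421547, minus strand) encodes the second mitotic B-type cyclin. The 24 h embryos had 307, 251, 327, 356, 380 and 397 CPM (lowest to highest 251 to 397, median 341 CPM). The 36 h embryos had 51.4 to 108.4 CPM with a median of 66.04 CPM, so no library of one group reached the other. The fall passed the test (log2 change -2.28, SE 0.23, adjusted p = 1.3e-06). Of the 2 members that fell between these hours, Ccnb2 had the larger fold.

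From 0 h to 12 h, when Ccnb1 rose, the log2 change of Ccnb2 was 0.30 (SE 0.22, adjusted p = 0.30). The difference between both changes was not tested. From 12 h to 24 h the log2 change was -0.53 (SE 0.20, adjusted p = 0.071), and without 12 h replicate 5 the adjusted p was 0.026. From 14 h (346 ± 20.4 CPM) to 16 h (238 ± 48.99 CPM) Ccnb2 fell 1.47-fold (log2 change -0.55, SE 0.15, adjusted p = 0.026). That call was lost in 7 of 11 alternatives, with adjusted p from 0.0035 to 0.20 over all of them. These included leaving out 14 h replicate 1, 3, 4 or 5. Morulae had 111.4 ± 45.2 CPM against 71.6 ± 20.4 CPM at 36 h (log2 change 0.63, SE 0.30, adjusted p = 0.060). Leaving out morula replicate 4 gave a log2 change of 0.79 and an adjusted p of 0.015, and the call was also gained without 36 h replicate 5 or 8 or morula replicate 1 or 2. At 0 h Ccnb2 was 1.32-fold above oocytes (log2 change 0.40, SE 0.14, adjusted p = 0.024), a call that was lost without 0 h replicate 3 (adjusted p = 0.17) or replicate 4 (adjusted p = 0.26).

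Cyclin B3 RNA was present at a low level throughout and was listed at 0 in most morulae. Ccnb3 (ENSMUSG00000051592.14, chrX:6979652-7041619, minus strand) encodes a B-type cyclin known for its part in female meiosis, where it promotes the metaphase to anaphase transition of the first division. Group means from the oocyte to 24 h lay between 18.9 and 44.5 CPM, highest at 14 h (44.5 ± 13.2 CPM) and 16 h (43.5 ± 10.2 CPM). At 36 h embryos had 4.11 to 20.6 CPM with a median of 13.8 CPM. In morulae replicate 1 had 5.47 CPM, from 12 counts, and the other 6 libraries had no count. The fall from 36 h passed the test (log2 change -3.80, SE 0.86, adjusted p = 0.00038). Ccnb3 passed the filter on low counts there through the 36 h group, so that test had to find a difference. Without morula replicate 1 the fitted log2 change was -7.89, a value that depends on the prior count because all remaining morulae are at 0.

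At 0 h Ccnb3 was 27.5 ± 6.3 CPM against 18.9 ± 2.7 CPM in oocytes, 1.53-fold higher (log2 change 0.61, SE 0.20, adjusted p = 0.015). This call was lost without 0 h replicate 2 (adjusted p = 0.095) or replicate 3 (adjusted p = 0.060). Against 0 h, 36 h embryos were 1.88-fold lower (log2 change -0.91, SE 0.39, adjusted p = 0.047), and 11 of 19 alternatives lost that call, with adjusted p from 0.023 to 0.14. These included leaving out any 1 of 0 h replicates 1 to 4 or of 36 h replicates 1, 5, 6, 7 and 8.

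Cyclin A2 RNA moved little, and it passed the test only in the comparisons of 0 h with oocytes and of 36 h with 0 h. Ccna2 (ENSMUSG00000027715.9, chr3:36564865-36572150, minus strand) encodes the A-type cyclin that acts with Cdk2 in S phase and with Cdk1 toward mitosis. Its group means lay between 227 CPM (20 h) and 364 CPM (36 h), and when the 16 groups were ordered by mean, no neighbours differed by more than the larger of their SDs. Oocytes had 319 ± 17 CPM and 0 h embryos 239 ± 29 CPM, with 296 to 340 CPM and 216 to 289 CPM, which did not overlap. The 1.27-fold difference passed the test (log2 change -0.35, SE 0.10, adjusted p = 0.0060). The 36 h embryos, at 316 to 463 CPM, were all above the 0 h embryos, 1.68-fold on average (log2 change 0.75, SE 0.17, adjusted p = 0.00078). Over the same comparison the median log2 change of all genes tested was 0.40. In 1 fit of all libraries neither call remained (adjusted p = 0.43 against oocytes and 0.12 for 36 h with 0 h). The step from 24 h to 36 h was 0.00 on the log2 scale (SE 0.18, adjusted p = 0.98).

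A single 22 h embryo, replicate 1, had 1006 CPM of Ccna2 against 143 to 362 CPM in the other 9. Exons of Ccna2 overlap those of Exosc9 on the opposite strand, and the kit does not mark strand, so some reads may belong to either gene. Ccna1, the A-type cyclin of the male germ line, had 1 count at 16 h and 1 count at 36 h and none in the other groups.

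Cyclin E1 RNA was scarce until 22 h and then rose in consecutive intervals to become the E-type cyclin with the higher level per kilobase. Ccne1 (ENSMUSG00000002068.16, chr7:38097984-38107534, minus strand) encodes the activating partner of Cdk2 at entry into S phase. At 22 h the lowest, median and highest of 10 embryos were 1.08, 4.44 and 6.77 CPM. The 24 h embryos had 55.2, 8.71, 5.35, 25.7, 14.4 and 8.01 CPM, of which 5 lay above every 22 h embryo. The rise was 4.53-fold (log2 change 2.18, SE 0.45, adjusted p = 0.038). Without the titles ending in b, which leaves 3 and 4 libraries, the adjusted p was 0.21.

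The pair of 24 h embryos with most Ccne1, replicates 1 and 4, were also those with most two-cell marker RNA: 1409 and 1636 CPM, against 54.7 to 255 CPM in the other 4. They also had the most Ccnjl, 4.20 and 2.88 CPM. The part of embryo stage within the 24 h group in these results was not tested. Leaving out replicate 1 turned the log2 change of Ccne1 from 12 h to 24 h from 0.47 to -0.20, and neither value passed the test.

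The 36 h embryos had 110.5 to 295 CPM of Ccne1 with a median of 172 CPM, above every earlier library. From 24 h the rise was 8.68-fold (log2 change 3.12, SE 0.46, adjusted p = 4.9e-05), and from 0 h it was 37.6-fold (log2 change 5.23, SE 0.36, adjusted p = 1.1e-09). Per kilobase of exon the mean at 36 h was 66.9 CPM for Ccne1 and 24.1 CPM for Ccne2. At 24 h the order was the other way around, 7.35 against 30.9 CPM per kilobase. Morulae had 114.8 ± 53.8 CPM of Ccne1 (log2 change -0.60 against 36 h, SE 0.30, adjusted p = 0.074). Without 36 h replicate 4 or morula replicate 5 the adjusted p was 0.048 or 0.035, and DESeq2 gave 0.0019.

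In the first 12 hours Ccne1 rose from 5.15 ± 2.13 CPM to 14.7 ± 7.1 CPM (2.75-fold, log2 change 1.46, SE 0.45, adjusted p = 0.016). Single values were 7.81, 6.70, 4.00, 4.74 and 2.47 CPM at 0 h and 7.98, 16.8, 25.7, 13.8 and 9.24 CPM at 12 h, which did not overlap. Without 12 h replicate 3 the adjusted p was 0.056. Against oocytes (10.0 ± 3.6 CPM) the 0 h level was 1.84-fold lower (log2 change -0.88, SE 0.36, adjusted p = 0.049), and 11 of 19 alternatives lost this call, among them leaving out any 1 of oocyte replicates 3, 4, 5, 7 and 8 or 0 h replicates 3, 4 and 5.

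Cyclin E2 RNA stayed between 47.96 and 126.3 CPM in the group means, and no main comparison called it. Ccne2 (ENSMUSG00000028212.16, chr4:11191351-11204779, plus strand) encodes the other E-type cyclin, and its exons overlap those of Ints8 on the opposite strand. Its level was 64.5 ± 14.9 CPM in the 0 h group, 108.02 ± 33.9 CPM in the 24 h group and 84.1 ± 22.4 CPM in the 36 h group. In morulae replicate 2 had 148 CPM and the other 6 had 12.4 to 46.6 CPM. The log2 change against 36 h was -0.79 (SE 0.39, adjusted p = 0.072), and without morula replicate 2 it was -1.46 with an adjusted p of 0.00034. With all morulae kept, DESeq2 gave an adjusted p of 1.3e-05.

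The D-type cyclins, which link growth signals to the G1 phase, had the lowest summed level per kilobase of the classical classes at 36 h. Ccnd3 (ENSMUSG00000034165.16, chr17:47505051-47599691, plus strand) had 4161 counts over all libraries, Ccnd1 771 and Ccnd2 511. Their exons overlap those of genes on the opposite strand (Bysl for Ccnd3, LTO1 for Ccnd1, Gm43126 and 9330179D12Rik for Ccnd2). Ccnd3 means lay between 4.87 and 18.3 CPM apart from the 10 h group, whose mean of 46.0 ± 79.01 CPM fell to 10.8 CPM without replicate 5. From 24 h (7.33 ± 2.82 CPM) to 36 h (17.7 ± 8.5 CPM) Ccnd3 rose 2.33-fold (log2 change 1.22, SE 0.40, adjusted p = 0.015), with 3.89 to 10.8 CPM at 24 h and 6.95 to 30.8 CPM at 36 h, which overlapped.

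Ccnd1 (ENSMUSG00000070348.5, chr7:144929931-144939925, minus strand) had 8.14 ± 6.24 CPM at 36 h, from 193 counts, and its mean was 0.128 to 4.92 CPM in all other groups. At 22 h the 7 libraries with b in the title had 4.74 to 10.8 CPM with a median of 6.02 CPM. The 3 without b had 0 to 1.36 CPM. At 36 h the libraries had 1.44 to 19.0 CPM with a median of 6.84 CPM. The 24 h embryos had 0.484 to 3.34 CPM, so the groups overlapped. The rise from 24 h was 3.66-fold (log2 change 1.87, SE 0.57, adjusted p = 0.010) and that from 0 h 5.78-fold (log2 change 2.53, SE 0.69, adjusted p = 0.0035). Of 20 alternatives for the rise from 24 h, Ccnd1 passed the filter on low counts in 14 and was called in those. It was not tested without 36 h replicate 1, 2, 3, 4, 5 or 7, where it did not pass that filter. Of 19 for the rise from 0 h it was tested and called in 14, and not tested without 36 h replicate 1, 2, 3, 4 or 5. Ccnd1 thus needed the high 36 h libraries to be tested, so these calls are no separate support for the rises. Ccnd2 (ENSMUSG00000000184.12, chr6:127125162-127152193, minus strand) was too scarce to be tested in any comparison. It had no count in 46 of 96 libraries.

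Markers of cumulus cells were high in several of the libraries with D-type RNA. Ccnd2 is known as the cyclin of proliferating granulosa cells, the cell type that cumulus cells belong to. Of 10 libraries with at least 5 CPM of Ccnd2, 8 had a cumulus marker sum of 472 to 10680 CPM, against a median of 94.9 CPM over all libraries. Of the 86 libraries below that level of Ccnd2, 40 also lay above this median. Oocyte replicates 1, 2, 5 and 6 and 14 h replicate 3, with cumulus sums of 716 to 1349 CPM, had 0 to 2.93 CPM of Ccnd2. This threshold was chosen after the values were seen. The other pair, 36 h replicates 1 and 2, had 6.59 and 8.85 CPM of Ccnd2 with cumulus sums of 41.1 and 29.4 CPM. In 10 h replicate 5, Ccnd3 was 187 CPM and Ccnd2 13.3 CPM, while Ccnb1 was 248 CPM and Ccne1 and Ccnb3 had no count. Over the 36 h group the cumulus sum ranged from 29.4 to 1147 CPM with a median of 43.6 CPM, against 36.1 to 153 CPM and 52.2 CPM at 24 h. At 36 h 12 of the 17 markers averaged at least 1 CPM and Amh had no count, and at 24 h 7 did. In 36 h replicate 3, which held the 1147 CPM, Ccnd1 was 4.85 CPM, below the median of its group, and Ccnd3 was 22.3 CPM, above it. The part of cumulus RNA in the D-type results was not tested.

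**Figure D3:**
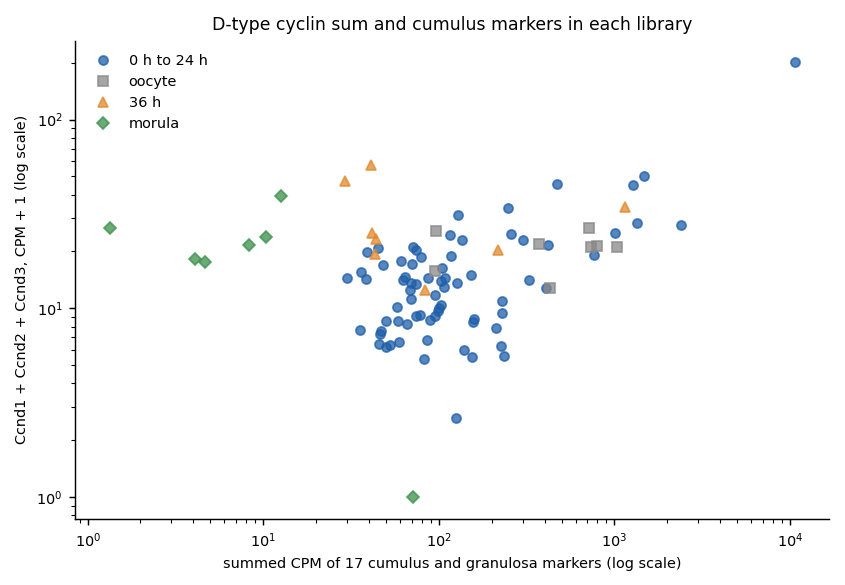
Summed CPM of Ccnd1, Ccnd2 and Ccnd3 plus 1 (y axis, log scale) against the summed CPM of 17 cumulus and granulosa markers (x axis, log scale) in each library; symbols give the stage. The point at the upper right is 10 h replicate 5, with 10680 CPM of cumulus markers, and the 36 h points reach a D-type sum of up to 56.4 CPM, mostly at low marker sums.

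Ccnjl RNA was scarce up to 24 h, abundant at 36 h and had counts in 1 of 7 morulae. Ccnjl (ENSMUSG00000044707.7, chr11:43528784-43586997, plus strand) encodes a cyclin J-like protein of little known function, and its exons overlap those of the antisense gene Gm12150. At 36 h all 8 embryos had 36.4 to 167 CPM with a median of 65.3 CPM, from 1635 counts. The 24 h embryos had 4.20, 1.69, 1.95, 2.88, 0.959 and 0.668 CPM, and all 6 had counts. The rise was 32.4-fold (log2 change 5.02, SE 0.45, adjusted p = 4.6e-07), and no 24 h library reached the 36 h range. Ccnjl passed the filter on low counts only in comparisons with 36 h, through that group, so its tests had to find a difference. No count of Ccnjl was found at 0 h, 4 h, 6 h and 20 h, which allows up to 0.413, 0.917, 0.780 and 0.194 CPM as 3 counts over the group. With the counts of each group pooled over its libraries, and 3 counts in place of 0, 36 h embryos were at least 200.6-fold higher than 0 h embryos and at least 428-fold higher than 20 h embryos. These limits cover counting error only, because the libraries were amplified and the counts are of reads.

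Elsewhere before 24 h Ccnjl had 1 to 13 counts per group, with 2.44 and 2.35 CPM in 8 h libraries as the highest, above 4 of the 6 libraries at 24 h. At 22 h it had 1 count in 10 libraries and at 24 h 65 counts in 6. In morulae replicate 1 held 2 counts and the other 6 libraries none. The ratio of 36 h to morulae in pooled counts was 564 (exact 95% interval 156 to 4661). This interval covers counting error only and not the spread between embryos. The edgeR fit gave an adjusted p of 1.1e-10, in a test that had to find a difference.

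Across the 6 main comparisons, Ccnb1 was called in 4, Ccne1 in 4, Ccnb2, Ccnb3 and Ccnjl in 3 each, Ccna2 and Ccnd1 in 2 each, Ccnd3 in 1 and Ccne2 and Ccnd2 in none. At 0 h against oocytes 4 of the 7 members tested were called: 2 higher (Ccnb2, Ccnb3) and 2 lower (Ccne1, Ccna2), where 25.3% of 9561 genes were called higher and 20.5% lower. At 12 h against 0 h 2 of 7 were higher (Ccnb1, Ccne1) and none lower, beside 19.6% and 19.4% of all genes. DESeq2 also called 2. At 24 h against 12 h 1 of 7 was lower (Ccnb1) and none higher, beside 8.32% lower and 13.4% higher. At 36 h against 24 h 4 of 9 were higher (Ccnd1, Ccnd3, Ccne1, Ccnjl) and 2 lower (Ccnb1, Ccnb2), beside 28.1% and 25.4%. In morulae against 36 h 2 of 8 were lower (Ccnb3, Ccnjl), beside 43.3%, and none higher, beside 28.4%, while DESeq2 called 5, adding Ccna2, Ccne1 and Ccne2. At 36 h against 0 h 4 of 9 were higher (Ccna2, Ccnd1, Ccne1, Ccnjl) and 3 lower (Ccnb1, Ccnb2, Ccnb3), beside 40.0% higher and 24.7% lower. These comparisons share groups and are not independent. The members that were not tested had passed no filter on low counts, and a member that passes it through 1 high group had to differ. This applies to Ccnjl and Ccnd1, whose calls rest on the high 36 h group and add nothing to the counts beside the shares. It also applies to Ccnb3 in morulae against 36 h, where only 1 of 7 morulae had counts.

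**Figure D4:**
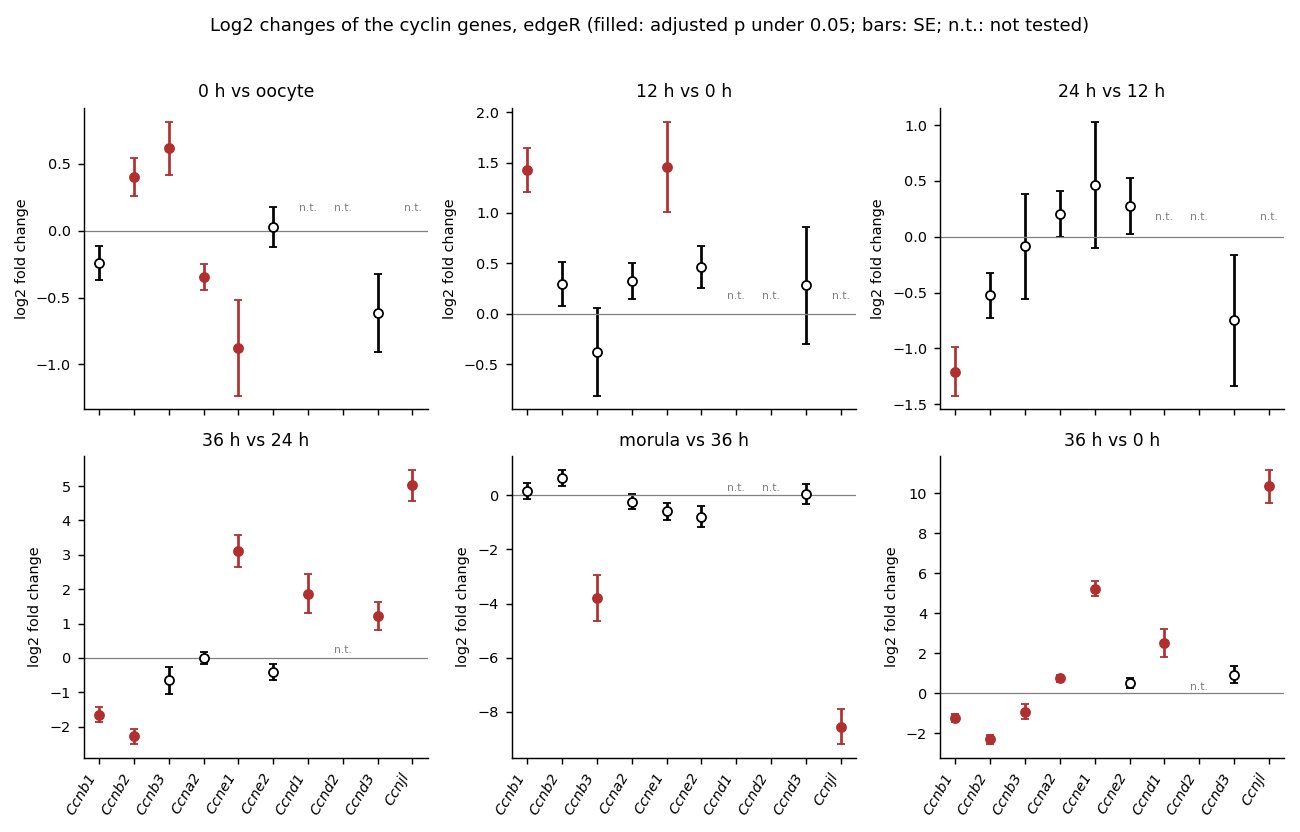
Log2 fold changes (y axis, scale set per panel) of the 10 cyclin genes (x axis) in the 6 main comparisons by edgeR, with SE as bars; filled red points have an adjusted p under 0.05, open points do not, and n.t. marks genes not tested. From 24 h to 36 h Ccnb1 and Ccnb2 lie at -1.66 and -2.28, and Ccne1 and Ccnjl at 3.12 and 5.02.

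Between neighbouring collection times up to 24 h (12 intervals of 2 h), 3 of 84 tests of a member in an interval passed. They were the falls of Ccnb1 and Ccnb2 from 14 h to 16 h, where 12.0% of all genes were called, and the rise of Ccne1 from 22 h to 24 h, where 0.293% were called. The other 10 intervals had none by edgeR, 14 at an unadjusted p under 0.05 and 3 by DESeq2. Of all genes, 8.32% were called from 0 h to 2 h, 0.233% from 2 h to 4 h, 0.0102% from 18 h to 20 h, and 0% in each of the other 7 intervals.

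Ordered by group mean, most neighbouring groups did not differ by more than the larger of their SDs. Of the 15 steps in each gene's order, 3 exceeded it for Ccne1 (36 h above morula, morula above 24 h, and 4 h above 0 h) and 2 for Ccnb1 (4 h above 14 h, and 16 h above morula). There was 1 such step for Ccnb2 (16 h above morula), Ccnb3 (36 h above morula) and Ccnjl (36 h above 24 h). Ccna2, Ccne2 and the 3 D-type cyclins had none. The highest group was 8 h for Ccnb1 (10 h without its replicate 5, at 6121 CPM), 6 h for Ccnb2, 14 h for Ccnb3, 4 h for Ccne2 and 36 h for Ccna2, Ccne1, Ccnd1 and Ccnjl.

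As shares of the summed level per kilobase of the 10 members, B-type RNA made up most until 24 h and less at 36 h. Other cyclins are not in these shares. The B-type share was 87.998 ± 0.983% in oocytes, 93.4 ± 1.0% at 12 h, 85.7 ± 2.8% at 24 h, 51.1 ± 7.5% at 36 h and 67.3 ± 8.1% in morulae. The A-type share was 9.83 ± 2.08% at 24 h and 20.6 ± 2.4% at 36 h, although the CPM of Ccna2 did not differ beyond the spread. The E-type share was 4.26 ± 1.41% at 24 h and 21.1 ± 5.4% at 36 h, with the 36 h libraries at 16.1 to 32.5%, all above the 24 h libraries at 2.56 to 6.69%. D-type RNA was 0.96 ± 0.55% and Ccnjl 6.19 ± 3.21% at 36 h. The lengths are the union of annotated exons, and the transcripts in use may be shorter.

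**Figure D5:**
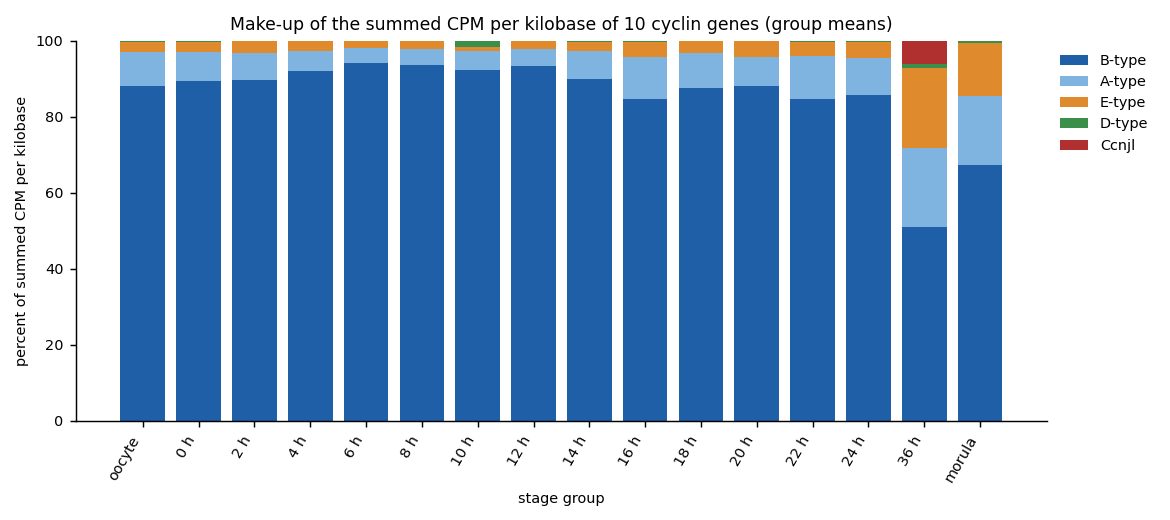
Mean share (y axis, percent) of each cyclin class in the summed CPM per kilobase of exon of the 10 genes, by stage group (x axis). B-type RNA makes up 85.7% at 24 h and 51.1% at 36 h, where E-type RNA reaches 21.1% and Ccnjl 6.19%.

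Several kinase partners of the cyclins rose between 24 h and 36 h. Of 8 such genes (Cdk1, Cdk2, Cdk4, Cdk6, Cdk7, Mnat1, Cks1b and Cks2), 7 were tested and 4 rose (Cdk4, Cdk1, Cdk2, Cdk7), none fell, and the median log2 change was 1.03 against -0.03 over all genes, of which 28.1% rose and 25.4% fell. Cdk1, the kinase of B-type cyclins, went from 63.97 ± 38.0 to 257 ± 73 CPM (log2 change 1.94, SE 0.31, adjusted p = 9.4e-05) while Ccnb1 and Ccnb2 fell. In morulae Cdk1 reached 797 ± 321 CPM (log2 change 1.64 against 36 h, SE 0.33, adjusted p = 9.5e-05). Cdk2, the partner of E-type cyclins, went from 7.17 ± 2.30 to 48.5 ± 23.2 CPM between 24 h and 36 h (log2 change 2.67, SE 0.49, adjusted p = 0.00026). Cdk4, the partner of D-type cyclins, went from 11.5 ± 6.1 to 45.4 ± 13.3 CPM (log2 change 1.91, SE 0.32, adjusted p = 0.00014) and to 159 ± 58 CPM in morulae (log2 change 1.87, SE 0.28, adjusted p = 1.7e-06).

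Those inhibitors of these kinases that could be tested were higher at 36 h than at 24 h. Of 7 inhibitor genes, 4 passed the filter on low counts over these hours and these 4 rose (Cdkn1a, Cdkn2c, Cdkn1c, Cdkn2d), against 28.1% of all genes tested. None of the 7 passed the filter at 12 h against 0 h and 3 did at 24 h against 12 h. A gene that passes it through the 36 h group alone had to come out higher. The count of 4 can therefore not be weighed against the share of all genes. In morulae 3 of 4 tested fell (Cdkn2c, Cdkn1c, Cdkn2d), against 43.3% of all genes. A gene that passes the filter there through the 36 h group had to come out lower, so this count cannot be weighed either. Cdkn1a, which encodes p21, went from 2.08 ± 1.296 CPM at 0 h to 101.4 ± 38.0 CPM at 36 h (log2 change 5.78, SE 0.45, adjusted p = 5.0e-09). Among 10 genes of the phosphorylation switch that holds or frees Cdk1, 2 rose (Wee1, Cdc25c) and 3 fell (Arpp19, Mastl, Plk1) from 24 h to 36 h, against 28.1% and 25.4% of all genes. Cdc25c, a phosphatase that activates Cdk1, went from 6.90 ± 5.01 to 66.9 ± 23.1 CPM (log2 change 3.19, SE 0.44, adjusted p = 2.6e-05).

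Genes of cyclin destruction (26 genes: the anaphase-promoting complex, its activators and inhibitors, and SCF ligases) changed in both directions. At 0 h against oocytes 10 of 24 tested were higher and 1 lower (25.3% and 20.5% of all genes), with a list median of 0.29 against 0.03 for all genes. Ube2c, the ubiquitin-conjugating enzyme that works with the anaphase-promoting complex, went from 16.7 ± 4.2 CPM in oocytes to 292 ± 16 CPM at 0 h (log2 change 4.23, SE 0.15, adjusted p = 2.4e-16). It was back at 18.6 ± 8.5 CPM at 12 h (log2 change -3.97, SE 0.28, adjusted p = 2.1e-08), and at 134.8 ± 44.0 CPM at 24 h (log2 change 2.85, SE 0.36, adjusted p = 0.00046). From 0 h to 12 h 2 of 24 rose and 7 fell, against 19.6% and 19.4% of all genes. From 24 h to 36 h 2 of 26 rose and 9 fell, against 28.1% and 25.4%. Fbxo43, which encodes the inhibitor Emi2 that keeps the egg in metaphase, fell from 137.5 ± 23.6 to 27.8 ± 14.9 CPM (log2 change -2.35, SE 0.34, adjusted p = 4.1e-05).

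Regulators of cyclin transcription (23 genes: E2F, Rb and NF-Y families, the DREAM complex, Mybl2 and Foxm1) had 5 of 22 tested higher and 6 lower from 24 h to 36 h, against 28.1% and 25.4% of all genes. Foxm1, an activator of B-type cyclin genes, rose from 2.77 ± 1.18 CPM at 12 h to 17.7 ± 3.8 CPM at 24 h (log2 change 2.72, SE 0.39, adjusted p = 0.00077). Nfyb, a subunit of the factor that binds CCAAT, fell from 47.8 ± 15.6 to 13.9 ± 3.5 CPM over the same hours (log2 change -1.77, SE 0.29, adjusted p = 0.0015). In morulae against 36 h 2 of 21 rose and 13 fell (28.4% and 43.3% of all genes), with a list median of -1.89 against -0.53 for all genes. E2f5, a repressor of the family, went from 564 ± 161 to 35.7 ± 62.8 CPM (log2 change -5.36, SE 0.52, adjusted p = 2.9e-09). Among 16 other cyclins, 4 of 15 tested rose and 5 fell from 24 h to 36 h, against 28.1% and 25.4% of all genes. Ccng1, a target of p53, rose from 5.53 ± 2.70 to 46.8 ± 26.7 CPM (log2 change 3.00, SE 0.45, adjusted p = 5.1e-05).

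The genes with courses most like those of the members were found by Pearson's r of group means of log2(CPM + 1) over the 16 groups among 12880 genes, as a description. For Ccnb1 these were its own pseudogene Ccnb1-ps (r = 0.99) and the processed pseudogene Gm8416 (r = 0.99). For Ccnb2 they were Nup85, a subunit of the nuclear pore (r = 0.98), and Naa35 (r = 0.97). For Ccnb3 they were Anks4b (r = 0.98) and Gm49337 (r = 0.98). Ccne1 was most like Aaed1 (r = 0.97) and Gabpa (r = 0.96), and Ccnjl most like Pgr15l (r = 0.99) and Gm18204 (r = 0.98). Likeness was lower for Ccnd3, with Ifngr2 (r = 0.91) and Maf1 (r = 0.90), for Ccne2, with Rab7 (r = 0.89) and Gm5577 (r = 0.87), and for Ccna2, with Gm15975 (r = 0.78) and Aqp9 (r = 0.75). Ccnd1 and Ccnd2 reached 10 CPM in no group mean and were left out.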

How the data were processed

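Single oocytes and embryos were profiled with SMART-Seq v4 and Nextera XT, per the labels' protocols. The deposited table holds expected counts per gene, which are fractional: 28.4% of non-zero gene values were not whole. Trimmomatic 0.39, STAR, featureCounts and the mm10 build are named per the submitters' processing notes. Their options and the annotation release are not given in the sources used here. Identifiers were matched to GENCODE M21 without their version (55141 of 55401 gene rows), and 873 rows of repeats were left out of totals and tests.

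Expected counts, as deposited by the authors, were rounded to whole numbers. Each comparison was fitted on its own 2 groups with edgeR 4.0.16 in R 4.3.3 (filterByExpr, TMM, robust quasi-likelihood test, two-sided, Benjamini-Hochberg over all genes tested, threshold 0.05). SE is the log2 change divided by the square root of F. CPM used TMM factors estimated over all 96 libraries. Alternatives were DESeq2 1.42.0, library size alone, no filter, 1 fit of all libraries, a replicate block, leaving out each library, leaving out titles ending in b, and, added after the data were seen, Ccnb1 summed with Ccnb1-ps. The fits were tested on simulated data.

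The members, lists and tests were chosen with earlier results of these data known. Genes of the other lists are named by a rule: in each main comparison, up to 2 called genes per direction with the lowest adjusted p, plus Cdk1, Cdk2, Cdk4 and Ccna1; of members with a group mean of at least 10 CPM, the 2 genes most like them. Replicate numbers of 2 groups did not pair libraries: same-numbered libraries had correlations of deviations from -0.22 to 0.17. Total counts per library ran from 10614 to 6798455, and the number of reads behind the low members limits their precision.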

Additional observations from a re-analysis of the deposited data

Results flagged for a closer look

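Each gene in each group of 4 to 10 libraries was examined for a single value far from the rest. Such a value was found 19 times, in 13.8% of these sets. The nominal rate of about 1 in 20 does not hold for scarce genes, where any count is flagged if all other libraries had none. The 13.8% can therefore not be read as an excess over chance. All values are CPM. Among the abundant members, Ccna2 was 1006 in 22 h replicate 1 (the other libraries 143 to 362). Ccnb1 was 1747 in oocyte replicate 8 (others 2280 to 2674), 4494 in 2 h replicate 5 (others 2082 to 2496) and 248 in 10 h replicate 5 (others 5085 to 6966). Ccne2 was 148 in morula replicate 2 (others 12.4 to 46.6).

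Among the scarce members, Ccnb3 was 5.47 in morula replicate 1, where all others had no count. Ccnd3 was 186.7 in 10 h replicate 5 and 30.2 in 22 h replicate 1. Ccnd1 was 6.23 in 8 h replicate 4, 0.641 in 10 h replicate 4 and 1.44 in 12 h replicate 5, and no other library of these groups had a count. Ccnd2 was 7.42 in 0 h replicate 5 (others without a count), 2.51 in 16 h replicate 6 and 3.55 in 22 h replicate 10. Ccnjl was 1.44 in 12 h replicate 5, 0.308 in 14 h replicate 5, 1.55 in 18 h replicate 5, 0.198 in 22 h replicate 5 and 0.912 in morula replicate 1.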

How the results depend on the processing

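Calls of Ccnb1 (12 h against 0 h, 24 h against 12 h, 36 h against 24 h and 0 h), of Ccnb2 and Ccne1 (36 h against 24 h and 0 h), of Ccnd3 (36 h against 24 h) and of Ccnjl (36 h against 24 h and 0 h, and morula) kept their direction and stayed past the threshold in every alternative run. Ccnjl entered the filtered tests through the 36 h group alone, so its calls are no separate support. The numbers of members called at 36 h were 5 to 6 against 24 h and 5 to 7 against 0 h when 1 library was left out.

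At 0 h against oocytes 4 members were called, but 2 without a filter, 2 with a replicate block and 0 in 1 fit of all libraries (1603 genes of all in place of 4374), and 1 to 4 when 1 library was left out (1 without 0 h replicate 3). At 12 h against 0 h the 2 calls became 1 with library size alone, 1 in 1 fit of all libraries (1623 genes in place of 3210) and 1 to 2 with 1 library left out (1 without 12 h replicate 3). At 24 h against 12 h the 1 call became 2 by DESeq2, 2 without a filter, 3 without titles ending in b (4080 genes in place of 2407) and 1 to 2 with 1 library left out (2 without 12 h replicate 5). In morulae against 36 h the 2 calls became 5 by DESeq2, 4 with library size alone, 4 in 1 fit (13328 genes, and 16828 without a filter, in place of 8065) and 2 to 4 with 1 library left out (4 without morula replicate 2). The 3 calls over the 2-hour intervals became 7 by DESeq2, 1 without titles ending in b (Ccnd3 at 16 h against 14 h, none of those 3) and 2 to 5 with 1 library left out (5 without 12 h replicate 5). With the replicate block 2, 3 and 7 members were called at 12 h, in morulae and at 36 h against 0 h.

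Only log2 changes that were not called turned direction. Ccne2 at 0 h was -0.0077 by DESeq2, -0.023 without a filter, -0.027 in 1 fit and -0.10 to 0.12 with 1 library left out. Ccnd3 at 12 h was -0.27 with the replicate block and -0.79 to 0.56 with 1 left out. At 24 h against 12 h Ccnb3 was 0.10 with library size alone, and with 1 left out Ccnb3 was -0.41 to 0.30, Ccnd3 -1.02 to 0.27 and Ccne1 -0.20 to 0.73. Ccna2 at 36 h against 24 h was -0.066 without a filter and -0.016 to 0.15 with 1 left out. In morulae Ccnb1 was -0.14 by DESeq2, and Ccnd3 was -0.30 by DESeq2, -0.21 with library size alone, -0.023 without a filter and -0.14 to 0.22 with 1 left out. The cause was not tested.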
